A study of Mus musculus with 2 samples.

Results

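The transcripts described here are those of 9 complement genes among the 32285 genes counted in each library of mouse uterine cells. They are C1qa, C1qb and C1qc (the 3 chains of the recognition molecule C1q), C1s1 (a C1s protease), C2 and C4b (which form the classical C3 convertase), C3 (the central component), Cfb (factor B, the protease of the alternative pathway) and C3ar1 (the receptor for the fragment C3a). The genes were chosen by name, and each symbol matched 1 row of the deposited tables.

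Complement is a cascade of secreted and surface proteins that tags microbes, dying cells and debris for clearance. C1q bound to a target activates the proteases C1r and C1s, which cleave C4 and C2, and the resulting convertase cleaves C3. Factor B joins deposited C3b to amplify that cleavage, and C3a signals through its receptor on myeloid cells. In the rodent uterus C3 is best known as an oestrogen-induced secretory product of the epithelium, and tissue macrophages are the usual source of C1q.

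Whole uteri of female C57BL/6J mice aged 6 months were dissociated with collagenase for 5 h and profiled by droplet single-cell RNA sequencing, which counts unique molecular identifiers (UMIs) from the 3-prime end of transcripts. The study asked what loss of Prickle1 in the myometrium does to the uterus. There was 1 library from Prickle1 f/f mice (control) and 1 from Prickle1 f/f MiC mice (cKO), each a pool of 3 mice. MiC is not spelled out in the labels, whose genotype entry is wild-type for each library. Because mice were pooled and each group is 1 library, the spread between animals was not measured and no test was possible. Every interval below is at 95% and covers counting error only. A gene is called higher or lower in a class only where its level differed by at least 2-fold after 5 CPM were added to both levels (CPM are UMIs scaled to 1 common total per class and library), and other values are given side by side.

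The control-labelled library held 45035801 UMIs and 3490 cells (median 4953 UMIs a cell), and the cKO-labelled library held 34261441 UMIs and 3586 cells (median 4903). Prickle1 was not lower in the cKO-labelled library. Its level over all cells was 2.56 CPM (96 UMIs) in the control-labelled library and 9.03 CPM (265 UMIs) in the cKO-labelled library, and in smooth muscle-like cells it was 14.9 and 24.4 CPM. A 3-prime count may not see a floxed exon, so this does not check the deletion, and all directions below refer to the libraries as labelled. Only 6 cell barcodes occurred in both libraries. The doublet caller marked 4 of 7076 cells (0.0565%) and so did not work, and doublets per class were not measured.

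Clusters were named from markers that included none of the members, the complement genes chosen above. This is stated for the members only and not for the wider lists of complement genes, such as receptors, read below. The 6 classes with at least 100 cells in each library were compared. Epithelium-like cells numbered 1311 and 109 in the control- and cKO-labelled libraries, or 37.6% and 3.04% of cells. Fibroblast-like cells numbered 854 and 1345, macrophage- or monocyte-like cells 315 and 226, smooth muscle-like cells 311 and 680, dendritic-like cells 156 and 210, and T- or NK-like cells 183 and 417. The T- or NK-like class was clusters 7 (with Trdc and Cd3e among its leading genes) and 17 (with Trbc1 and Trbc2). It left out cluster 10 (139 and 297 cells), led by Il2rb and Gzma, which stayed unnamed and was not compared. Of 54 pairs of a member and a class, 22 had a mean of at least 10 CPM. None of these 22 was at least 2-fold higher in the cKO-labelled library, against 3.82% of 46411 gene and class pairs over all genes. Lower levels by at least 2-fold were found in 7 of the 22, against 3.2% of all pairs. Of these 7, C3 and Cfb in epithelium-like cells and Cfb in macrophage- or monocyte-like cells had the larger counts. The other 4 rested on at most 46 UMIs in either library and reached the mean of 10 CPM only through the control-labelled library. The filter itself favours a lower call for such pairs, so 7 of 22 is a count and not a measure of excess.

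**Figure D1:**
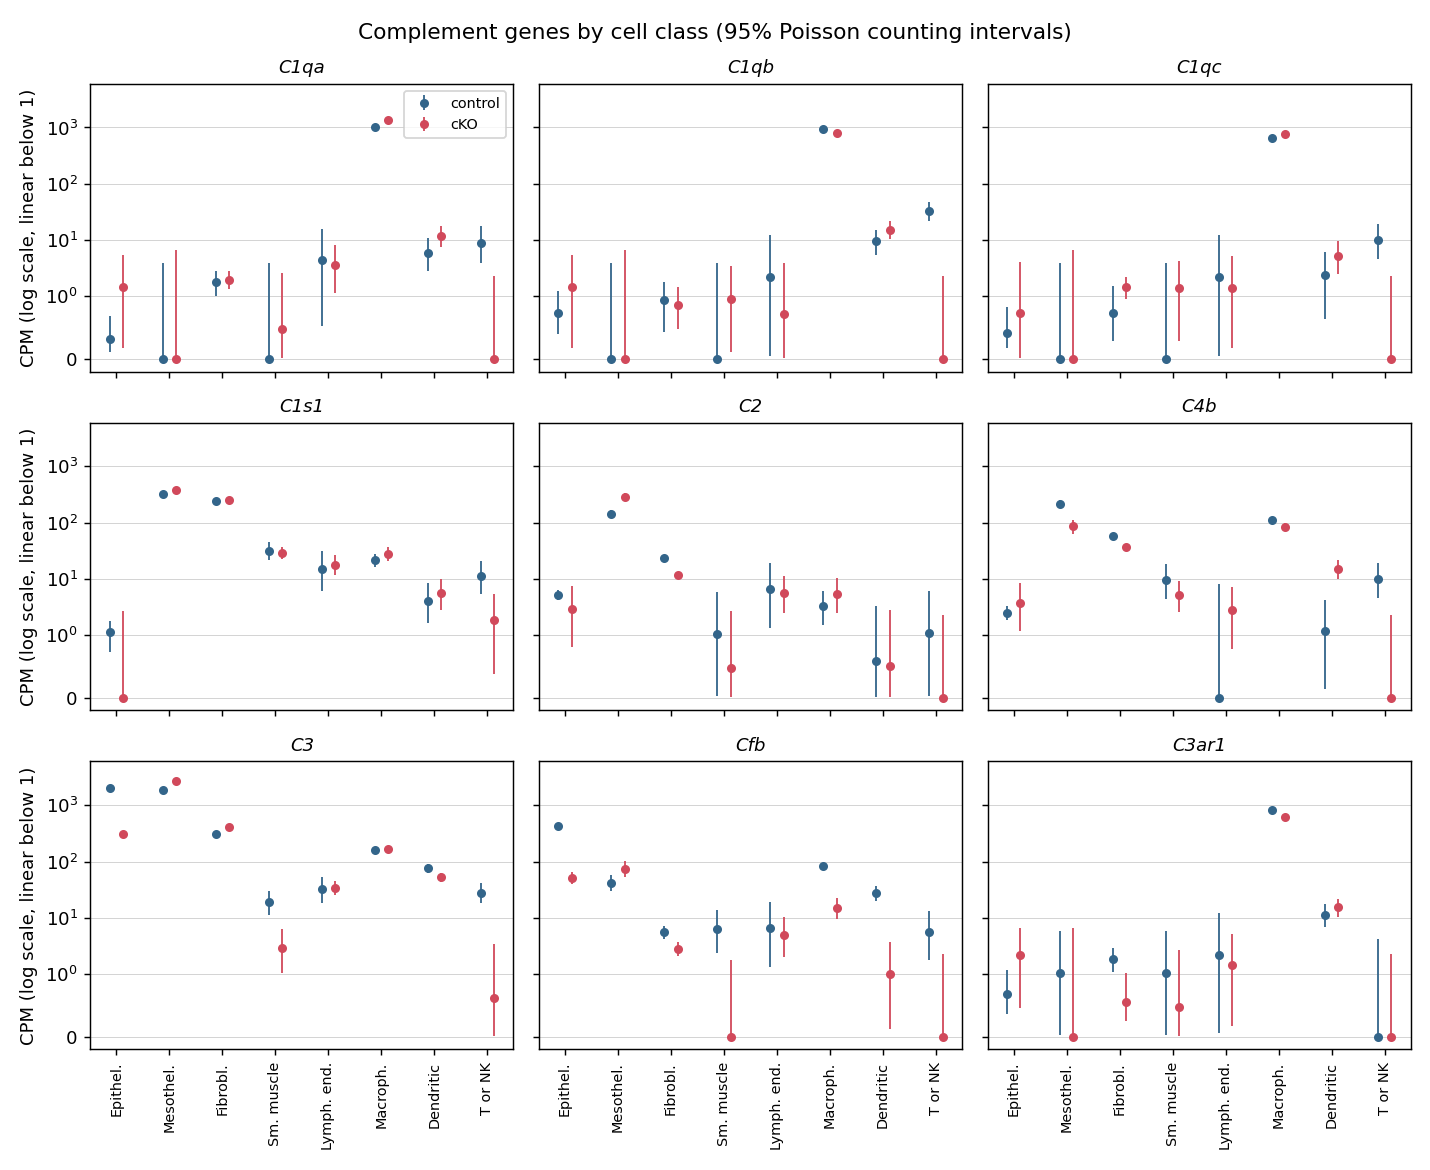
Level of each of the 9 genes (CPM, log scale with a linear part near 0) by cell class in the control-labelled library and the cKO-labelled library. The classes are the compared ones and, with fewer cells, mesothelium- and lymphatic endothelium-like cells. Points are summed UMIs per class, and bars are 95% Poisson intervals, which cover counting error only. Among the compared classes, the 3 C1q chains and C3ar1 stand highest in macrophage- or monocyte-like cells and C1s1 in fibroblast-like cells. C3 and Cfb stand highest there in epithelium-like cells of the control-labelled library. Mesothelium-like cells stand above fibroblast-like cells for C1s1, and those of the cKO-labelled library hold the highest C3 point.

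The recognition chains C1qa, C1qb and C1qc were found almost wholly in macrophage- or monocyte-like cells. This class, a single cluster in which all 8 of its markers (among them Adgre1, Csf1r and Mrc1) were found, held 98.5% of the C1qa UMIs of all cells in the control-labelled library and 97.1% in the cKO-labelled library. The same shares were 97.4% and 96.4% for C1qb and 98.4% and 96.99% for C1qc, although the class was 9.03% and 6.30% of cells. The genes lie side by side on the minus strand of chromosome 4 (GRCm38, GENCODE vM21), C1qb at chr4:136880129-136886187, C1qc at chr4:136889804-136893065 and C1qa at chr4:136895917-136898803. Gaps of 3616 and 2851 bases separate them.

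The windows upstream of C1qb and C1qc are shown because both genes share 1 cell class and 1 stretch of chromosome. Each is the 250 bases before the RefSeq start site (GRCm38.p6), at chr4:136886201-136886450 and chr4:136892915-136893164, both on the minus strand and written 5′ to 3′. Capitals mark the core bound by the myeloid factor PU.1, GAGGAA on either strand.
C1qb: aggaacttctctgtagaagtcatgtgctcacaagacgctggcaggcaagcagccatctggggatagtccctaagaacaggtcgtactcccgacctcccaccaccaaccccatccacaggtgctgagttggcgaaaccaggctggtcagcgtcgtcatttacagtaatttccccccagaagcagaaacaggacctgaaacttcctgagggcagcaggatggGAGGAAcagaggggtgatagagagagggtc
C1qc: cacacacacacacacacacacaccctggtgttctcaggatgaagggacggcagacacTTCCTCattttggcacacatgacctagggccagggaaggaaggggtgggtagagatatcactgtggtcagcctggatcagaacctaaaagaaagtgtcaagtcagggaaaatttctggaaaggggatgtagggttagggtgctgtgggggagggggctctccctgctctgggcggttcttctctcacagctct
The core began 30 bases before the start of C1qb, and on the opposite strand 193 bases before the start of C1qc. It occurs in 23.3% of 32851 mouse promoter windows of this length, so a match is a description of the letters and no more. Neither window held the interferon-stimulated response element (GAAA and GAAA 2 bases apart) or the gamma-activated site TTCNNNGAA on either strand. Promoter sequences were matched for 5 of the 9 genes; C1qa, C2, C4b and Cfb had none.

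The 3 chains did not differ by 2-fold between libraries in macrophage- or monocyte-like cells. The level of C1qa was 1010 CPM (2774 UMIs) in the control-labelled library and 1362 CPM (2262 UMIs) in the cKO-labelled library, a log2 ratio of 0.43 (0.35 to 0.51). C1qc was at 650.3 and 776.7 CPM (1786 and 1290 UMIs), a log2 ratio of 0.25 (0.15 to 0.36). C1qb stood on the other side, at 926 and 805 CPM (2543 and 1337 UMIs), a log2 ratio of -0.20 (-0.30 to -0.11). The median log2 ratio of the 7069 genes with at least 10 CPM in this class was 0.09, so C1qa and C1qc stood above it and C1qb below it. All 3 ratios lie beyond counting error and well inside 2-fold, and whether they exceed the spread between mice cannot be told from pooled libraries.

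The share of macrophage- or monocyte-like cells with a C1qa UMI was 80.6% in the control-labelled library and 82.7% in the cKO-labelled library. Their median depths differed, 7733 and 5759.5 UMIs, and with every cell thinned to 1000 UMIs the shares were 50.8% and 59.3%. C1qc had thinned shares of 39.4% and 47.8%, and C1qb of 46.0% and 44.7%. In T- or NK-like cells, which should lack C1q, C1qa was seen in 2 of 183 cells (1.09%) and in 0 of 417 at median depths of 3973 and 3471 UMIs, and a count of 0 there allows up to 1.86 CPM. In droplets with 10 to 100 UMIs, which hold free RNA, C1qa was at 79.1 and 74.5 CPM, far under the level of the class. Mesothelium-like cells had no UMI of any of the 3 chains in either library, which allows up to 3.20 and 5.36 CPM.

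At full depth, all 3 chains were seen together in 213 of 315 macrophage- or monocyte-like cells of the control-labelled library (67.6%, exact binomial interval 62.1% to 72.8%) and in 152 of 226 of the cKO-labelled library (67.3%, 60.7% to 73.3%). No chain was seen in 37 cells (11.7%) and 26 cells (11.5%). With cells thinned, all 3 were seen in 18.7% and 24.3%. Across single cells of the class, the Pearson correlation of log-scaled C1qa and C1qc was 0.72 in both libraries (n = 315 and 226 cells). For C1qa and C1qb it was 0.56 and 0.54, and for C1qb and C1qc 0.53 and 0.59. These are descriptions over cells that share a library and a depth range.

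**Figure D2:**
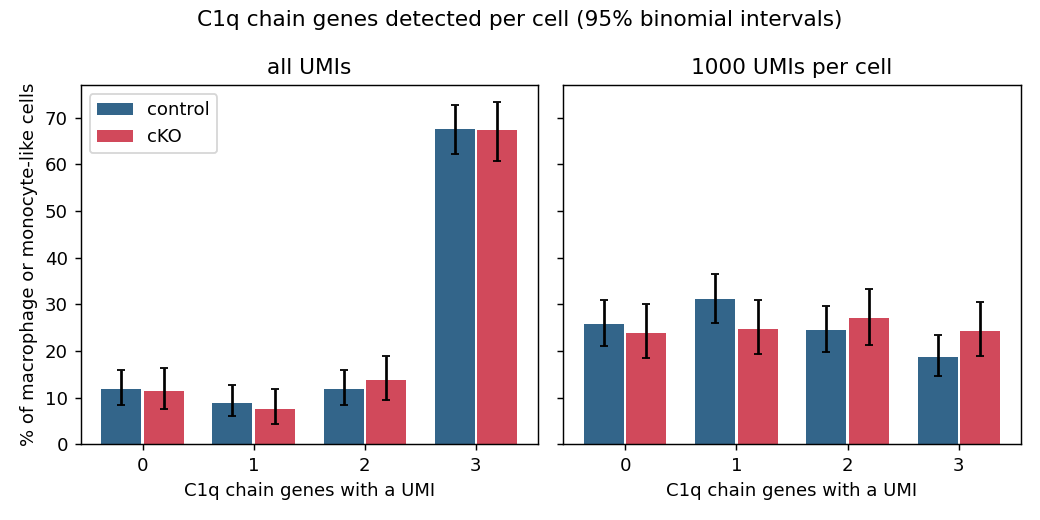
Number of C1q chains (0 to 3) with a UMI per macrophage- or monocyte-like cell, as a percentage of cells in each library, at full depth and with each cell thinned to 1000 UMIs. Bars are shares and error bars 95% exact binomial intervals. At full depth all 3 chains were seen in 67.6% and 67.3% of cells, and thinning lowers this to 18.7% and 24.3%.

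C3ar1, the C3a receptor (chr6:122847138-122856161, minus strand), was also found almost wholly in 1 class. Macrophage- or monocyte-like cells held 97.7% and 94.8% of its UMIs. Its level there was 821 CPM (2255 UMIs) in the control-labelled library and 611 CPM (1015 UMIs) in the cKO-labelled library, a log2 ratio of -0.42 (-0.53 to -0.32). Thinned shares of cells with a UMI were 48.3% and 38.9%, while the full-depth shares were 77.8% and 77.4%. Next among the compared classes came dendritic-like cells, at 11.2 and 15.4 CPM. Free RNA by itself was at 24.3 and 24.2 CPM, and an assumed 10% share of it in a class would bring 2.43 and 2.42 CPM. The correlation of C1qa with C3ar1 across cells was 0.34 in both libraries, against 0.53 to 0.72 between C1q chains.

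The next step of the classical pathway, cleavage of C4 and C2, was represented mostly but not only in other cells. Macrophage- or monocyte-like cells held 27.0% and 16.1% of C4b UMIs in the control- and cKO-labelled libraries. C1s1 (chr6:124530345-124542359, minus strand) was a fibroblast and mesothelium transcript. Fibroblast-like cells held 82.1% of its UMIs in the control-labelled library and 89.9% in the cKO-labelled library, at 242 CPM (2318 UMIs) and 249.6 CPM (4030 UMIs), a log2 ratio of 0.05 (-0.03 to 0.12). This interval includes no difference for the class as a whole, whose clusters differed in level, direction and number of cells, as given below. Mesothelium-like cells, 82 and 31 in number and too few for the comparison, were at 324.5 and 379 CPM. Smooth muscle-like cells were at 31.9 and 29.1 CPM and macrophage- or monocyte-like cells at 21.5 and 28.3 CPM. Free RNA by itself was at 19.6 and 53.8 CPM, and an assumed 10% share of it would bring 1.96 and 5.38 CPM. Reads of C1s1 may be shared with its near copy C1s2, which was at 0 CPM in fibroblast-like cells of the control-labelled library and 10.2 CPM in those of the cKO-labelled library, and with the antisense gene Gm16567 if strand was not used in counting.

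C4b (chr17:34728380-34743882, minus strand), the mouse gene for complement C4, was detected in both stromal and myeloid cells. Its highest level in a compared class was in macrophage- or monocyte-like cells, 113 CPM (311 UMIs) in the control-labelled library and 84.9 CPM (141 UMIs) in the cKO-labelled library, a log2 ratio of -0.40 (-0.71 to -0.12). In fibroblast-like cells it was at 58.2 CPM (558 UMIs) and 36.8 CPM (594 UMIs), a log2 ratio of -0.60 against a class median of 0.09. Both values lie short of 2-fold. Mesothelium-like cells were at 216 and 85.7 CPM (202 and 48 UMIs). In dendritic-like cells 27 of the 29 UMIs of the cKO-labelled library came from 1 cell. The near copy C4a stayed at or under 2.2 CPM in every compared class, and how reads common to both copies were assigned is not given in the sources used here.

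C2 (chr17:34862604-34898265, minus strand), which provides the protease of the classical convertase, was a low transcript. Most of it was split between fibroblast-like cells, with 47.3% and 49.3% of its UMIs, and mesothelium-like cells, with 27.5% and 41.3%, although the latter were 2.35% and 0.864% of cells. Epithelium-like cells held 20.2% (98 UMIs) in the control-labelled library and 1.04% (4 UMIs) in the cKO-labelled library, at 5.19 and 2.97 CPM. In fibroblast-like cells it was at 23.9 CPM (229 UMIs) in the control-labelled library and 11.7 CPM (189 UMIs) in the cKO-labelled library. The log2 ratio was -0.79 with 5 CPM added and -1.03 without, with a counting interval of -1.32 to -0.75 for the latter. A pseudocount of 1 CPM gave -0.97. Mesothelium-like cells were at 142 and 282 CPM, with 40 of the 158 UMIs of the cKO-labelled library in 1 cell.

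Fibroblast-like cells formed 7 clusters, and the 5 with at least 20 cells in each library (4, 8, 11, 14 and 22) show whether these differences were shared. C2 was below in the cKO-labelled library in each of them that reached 10 CPM. Log2 ratios, with counting intervals of the plain ratio, were -0.45 (-1.09 to -0.06) in cluster 4 and -0.70 (-1.56 to -0.20) in cluster 8. They were -0.80 (-1.78 to -0.11) in cluster 14 and -0.37 (-1.05 to 0.09) in cluster 22, where the interval includes no difference. C4b was mixed, at -0.64 in cluster 4 and -0.83 in cluster 22 but 0.49 in cluster 8 and 0.04 in cluster 14. C1s1 was near even in cluster 8 (0.00) and above in clusters 4 (0.45), 11 (0.92) and 22 (0.40), and stood below in cluster 14 (-0.21, 441 and 380.2 CPM). Cluster 22, led by the inflammatory genes Cxcl5 and Ptx3, had the highest C4b of the 5 in the control-labelled library, 128 CPM against 69.9 CPM in the cKO-labelled library, where cluster 8 was highest at 85.5 CPM. A class-wide C4b value therefore joins clusters of opposite direction. The class values also include clusters 21 (8 and 47 cells) and 25 (16 and 223 cells). Cluster 25 held 260810 of 9583722 UMIs of the class in the control-labelled library and 4551086 of 16143456 in the cKO-labelled library. C1s1 was at 169 and 104 CPM in it. The class ratios of C1s1, C2 and C4b thus depend on the mix of clusters as well as on the level within them. Of the genes with at least 10 CPM in fibroblast-like cells, 0.678% were at least 2-fold lower and 1.47% at least 2-fold higher, and none of the 4 members there (C1s1, C2, C3 and C4b) was.

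**Figure D3:**
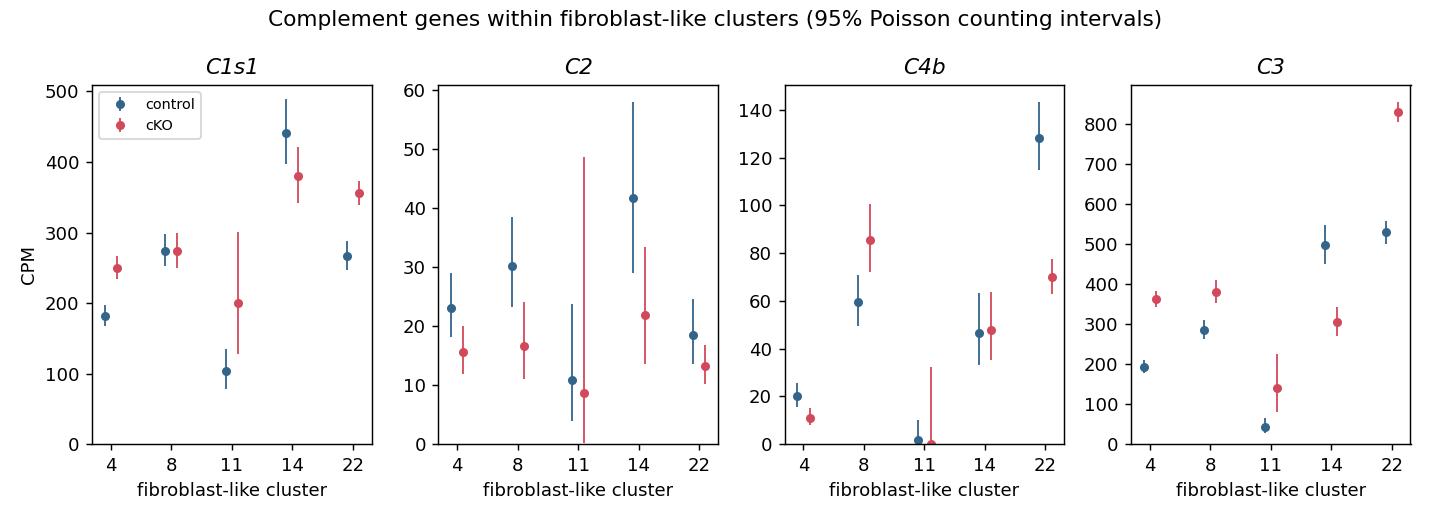
Levels of C1s1, C2, C4b and C3 (CPM) in the fibroblast-like clusters with at least 20 cells in each library, for the control-labelled library and the cKO-labelled library. Bars are 95% Poisson intervals of counting error. C2 sits lower in the cKO-labelled library in clusters 4, 8, 14 and 22, though in cluster 22 the interval of its ratio includes no difference. C4b differs in direction between clusters 4 and 22 and cluster 8.

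C3 and Cfb, the components on which all pathways and the amplification loop converge, were above all epithelial in the control-labelled library. Epithelium-like cells held 87.6% of that library's C3 UMIs and 95.3% of its Cfb UMIs. In the cKO-labelled library, in which these cells were few, they held 4.50% of C3 UMIs and 35.9% of Cfb UMIs. Fibroblast-like cells then held most C3, 72.0% against 6.79%, and mesothelium-like cells 16.9% against 3.97%. These shares depend on the number of cells captured in each class as well as on the level per cell.

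The window upstream of C3 (gene at chr17:57203970-57228136, minus strand) is shown because C3 had the largest count of the 9 genes. It is the 250 bases before the RefSeq start site (GRCm38.p6, chr17:57228137-57228386, minus strand), 5′ to 3′, with capitals on a match to the C/EBP pattern TTGCNNAA.
C3: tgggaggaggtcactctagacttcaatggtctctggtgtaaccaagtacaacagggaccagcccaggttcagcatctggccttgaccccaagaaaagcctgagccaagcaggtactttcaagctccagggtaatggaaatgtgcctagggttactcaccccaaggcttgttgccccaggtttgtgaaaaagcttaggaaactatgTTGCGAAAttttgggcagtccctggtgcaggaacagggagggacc
The match began 45 bases before the start site, and 9.56% of the 32851 promoter windows hold this pattern on either strand. The window held neither the oestrogen response element (GGTCA and TGACC 3 bases apart, in 0.0639% of windows) nor the NF-kB pattern (GGGA and TTCC 2 bases apart, 1.21%) nor the same 2 interferon patterns (2.98% and 7.02%). This says only that those letters are absent from these 250 bases. The gene for Cfb (chr17:34856374-34862518) lies 85 bases from C2 on the same strand of chromosome 17.

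In epithelium-like cells C3 was at 2056 CPM (38846 UMIs, interval 2036 to 2077) in the control-labelled library and 303 CPM (408 UMIs, 274 to 334) in the cKO-labelled library. The level was thus 6.79-fold lower, a log2 ratio of -2.74 with 5 CPM added, and the counting interval of the ratio was -2.91 to -2.62. Cfb was at 421 CPM (7958 UMIs) and 51.2 CPM (69 UMIs), 8.22-fold lower, with a log2 ratio of -2.92 (-3.40 to -2.70). Both members with at least 10 CPM in this class were therefore at least 2-fold lower, where 7.33% of 7953 genes were and 12.1% were at least 2-fold higher. The median log2 ratio of all those genes was 0.22.

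Both genes stayed at least 2-fold lower under all 12 alternative settings. For C3 the size depended on the setting, from -3.26 without clusters drawn mostly from 1 library, which leaves cluster 6 alone, to -1.80 with cells thinned to 1000 UMIs, and it was -1.83 when clusters were weighted equally. For Cfb the range was -3.19 to -2.46. The share of cells with a C3 UMI was 89.5% and 42.2% at median depths of 4371 and 4075 UMIs, and 69.3% and 23.9% after thinning. For Cfb it was 59.7% and 10.1%, and 23.0% and 4.59% after thinning.

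The single cells show an uneven distribution. The median epithelium-like cell had 6 C3 UMIs in the control-labelled library and 0 in the cKO-labelled library, and the highest had 640 and 80. The 1 cell with 80 UMIs held 19.6% of all C3 UMIs of its class in the cKO-labelled library, and without it the class level was 247 CPM. Both genes were seen together in 56.9% of cells in the control-labelled library and 5.50% in the cKO-labelled library.

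**Figure D4:**
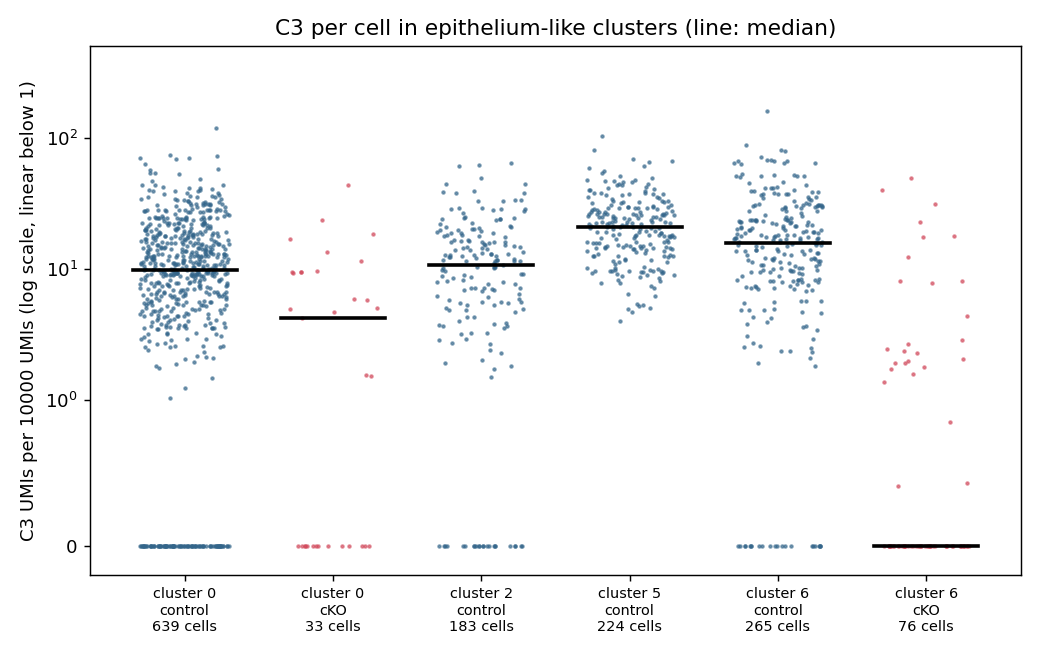
C3 UMIs per 10000 UMIs in each epithelium-like cell, by cluster and library, with the median of each set of cells. Clusters 2 and 5 hold cells of the control-labelled library only, and in cluster 6 the median is 15.8 in the control-labelled library and 0 in the cKO-labelled library.

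The clusters of the class differed. Of its 4 clusters, 2 and 5 had no cell from the cKO-labelled library, with C3 at 1492 and 2258 CPM and Cfb at 377 and 439 CPM. Cluster 5 had 7.30 times the median depth of its library, and possible doublets in it were not resolved. It held 22568 of the 38846 C3 UMIs and 9994201 of the 18890966 total UMIs of the class in the control-labelled library. In the cKO-labelled library cluster 6 held 1204431 of the 1347039 total UMIs of the class. The class ratios of C3 and Cfb thus depend on the mix of clusters as well as on the level within them. In cluster 6 (265 and 76 cells) C3 was at 2142 and 218 CPM, a log2 ratio of -3.26, and Cfb at 518 and 55.6 CPM, a log2 ratio of -3.11. In cluster 0 (639 and 33 cells) C3 was at 1344 and 1017 CPM, a log2 ratio of -0.40, short of 2-fold. The cell with 80 UMIs belonged to this cluster, and without it the cKO-labelled library was at 524 CPM there. Per 10000 UMIs, the median cell of cluster 0 had 9.84 C3 UMIs in the control-labelled library and 4.19 in the cKO-labelled library. Cfb in cluster 0 was at 180 and 14.02 CPM, but the latter was 2 UMIs.

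Other measures also differed between the libraries in the same cells. Of 11 interferon-stimulated genes, 10 were at least 2-fold lower in epithelium-like cells of the cKO-labelled library, with summed levels of 2638 and 261 CPM. Of 9 measured oestrogen response genes, 4 were at least 2-fold lower and 1 higher, with summed levels of 22640 and 9329 CPM. By cluster, the interferon sum was 1235 and 119 CPM in cluster 0 and 1200 and 278 CPM in cluster 6, while the oestrogen sum was 15247 and 27754 CPM in cluster 0 and 23135 and 7147 CPM in cluster 6. The interferon sum was thus lower in both shared clusters, and the oestrogen sum differed in direction between them. Nor was the lower interferon sum particular to epithelium-like cells, as it was found in every compared class. In fibroblast-like cells it was 734 and 72.2 CPM, and uneven between clusters. It was 9747 and 55.8 CPM in cluster 25 (16 and 223 cells), 1595 and 464 CPM in cluster 14, and 101 and 53.7 CPM in cluster 22. The part of the interferon or oestrogen genes in the complement levels was not tested, and the labels give no stage of the oestrous cycle.

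Free RNA carried the same contrast. In droplets with 10 to 100 UMIs, C3 was at 694 CPM in the control-labelled library and 60.1 CPM in the cKO-labelled library, and Cfb at 145 and 3.59 CPM. Low levels of C3 in other classes have to be read against this. Smooth muscle-like cells had C3 at 19.1 CPM (18 UMIs) and 2.86 CPM (6 UMIs), and T- or NK-like cells at 28.0 CPM (25 UMIs) and 0.619 CPM (1 UMI). Both were at least 2-fold lower in the cKO-labelled library (1.63% and 3.75% of all genes in these classes were lower by as much, and 3.19% and 1.71% higher). Free RNA at an assumed 10% of each class total would bring 69.4 and 6.01 CPM of C3. That is more than all the C3 of these 2 classes, so 10% is too large a share for them. Both log2 ratios were therefore bound to be 0.00 after its subtraction, which decides nothing about them.

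**Figure D5:**
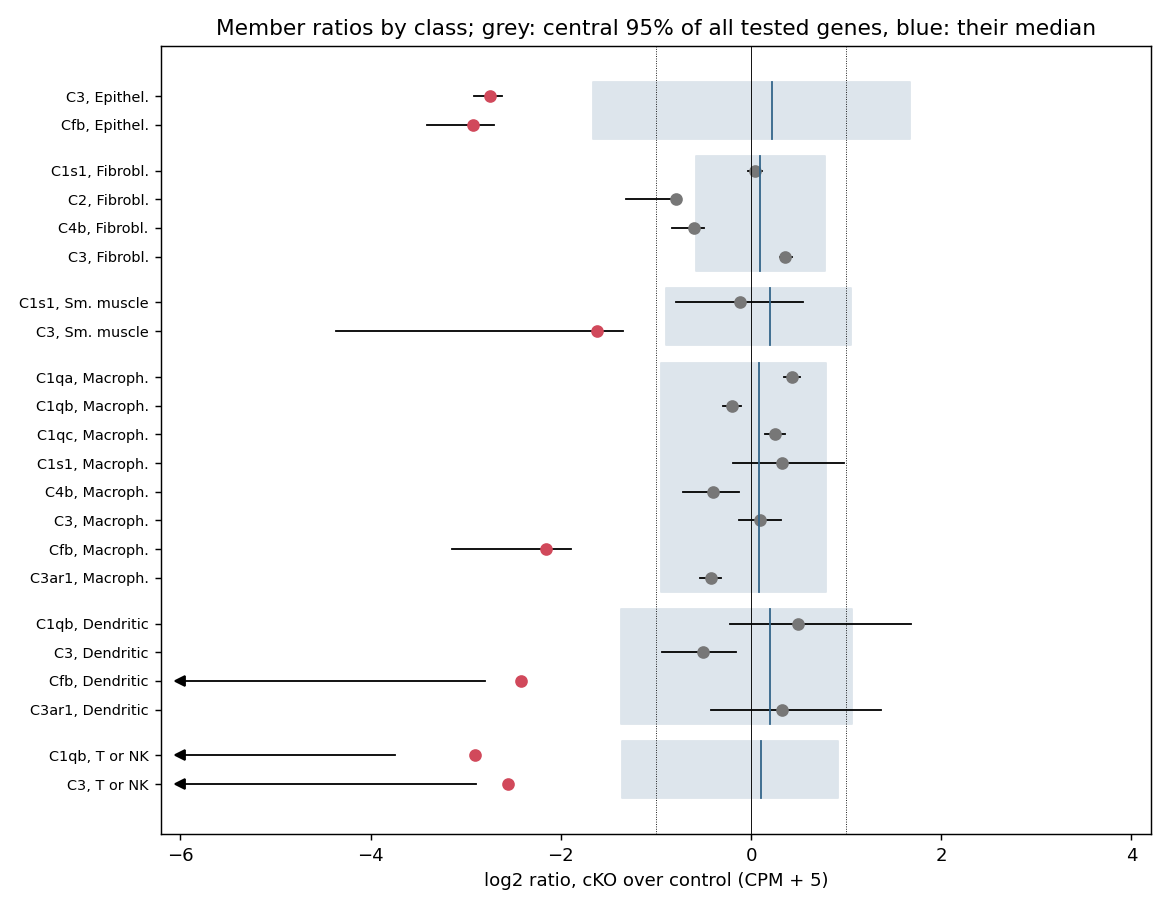
log2 ratio of the cKO-labelled library over the control-labelled library for the members in each compared class, from CPM plus 5, for pairs with a mean of at least 10 CPM. Bars are 95% counting intervals of the plain ratio without the 5 CPM, so a point of a low gene can lie outside its bar; dotted lines mark 2-fold, arrows run off the axis, and shaded bands hold the central 95% of all genes with at least 10 CPM in the class. The 7 pairs at least 2-fold lower are in red, and none lies beyond 2-fold on the other side.

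Cfb was also lower in macrophage- or monocyte-like cells. It was at 84.5 CPM (232 UMIs in 80 of 315 cells) in the control-labelled library and 15.1 CPM (25 UMIs in 12 of 226 cells) in the cKO-labelled library. This is 5.61-fold lower, with a log2 ratio of -2.16 with 5 CPM added and a counting interval of -3.15 to -1.89 for the plain ratio. It stayed past 2-fold under all 12 alternatives, from -2.41 to -1.96, the latter after subtraction of free RNA. Of the 8 members with at least 10 CPM in the class, it was the only one at least 2-fold lower, against 2.24% of all genes there, and none was higher, against 1.03%. The 11 interferon-stimulated genes were all at least 2-fold lower in this class, with summed levels of 11733 and 3039 CPM, and their part in the Cfb level was not tested.

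C3 in macrophage- or monocyte-like cells was at 159 CPM (438 UMIs) and 170 CPM (283 UMIs), a log2 ratio of 0.09 (-0.13 to 0.31). In the cKO-labelled library 80 of the 283 UMIs were in 1 cell, and without the highest cell of each library the levels were 141 and 124 CPM. The share of cells with a C3 UMI was 34.0% and 19.5%, or 9.84% and 4.87% after thinning. The sign of this ratio changed with the setting, from -0.96 with cells thinned to 0.84 after free RNA at an assumed 10% was subtracted. Across cells the correlation of C3 with Cfb was 0.36 in the control-labelled library and -0.06 in the cKO-labelled library, where only 12 cells had a Cfb UMI.

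In fibroblast-like cells C3 was not lower in the cKO-labelled library. It was at 314 CPM (3010 UMIs) in the control-labelled library and 405 CPM (6537 UMIs) in the cKO-labelled library, a log2 ratio of 0.36 (0.30 to 0.43), and 45.6% and 46.2% of cells had a UMI. The ratio was positive in clusters 4 (0.89), 8 (0.41), 11 (1.57, on 24 and 16 UMIs) and 22 (0.65) and negative in cluster 14 (-0.70). The highest fibroblast level was in cluster 22, at 530 and 831 CPM. Cluster 25, with 16 and 223 cells, had 7.67 CPM (2 UMIs) in the control-labelled library and 22.9 CPM (104 UMIs) in the cKO-labelled library. Cfb was low in fibroblast-like cells, at 5.53 and 2.85 CPM (53 and 46 UMIs). The fibroblast and epithelial C3 values thus differed in direction, and this difference was not tested.

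Mesothelium-like cells, although few, had C3 at 1881 CPM (1762 UMIs) and 2733 CPM (1530 UMIs). These levels stand beside 2056 and 303 CPM in epithelium-like cells. In the cKO-labelled library 428 of the UMIs came from 1 cell, and without it the level was 2220 CPM. Cfb was at 41.6 and 75.0 CPM there. The 82 and 31 cells allow no further reading.

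In dendritic-like cells Cfb was at 27.2 CPM (46 UMIs in 10 cells) and 1.03 CPM (2 UMIs), a log2 ratio of -2.42, in a class where 3.47% of genes were at least 2-fold lower and 3.09% higher. One cell held 18 of the 46 UMIs, and removal of the highest doublet scores left -1.0, at the edge of the 2-fold limit. C3 there was at 76.4 and 52.4 CPM (129 and 102 UMIs), a log2 ratio of -0.50 that turned to 2.14 after free RNA was subtracted and to 0.76 without the highest doublet scores. The subtraction took 69.4 of the 76.4 CPM of the control-labelled library, so the 2.14 rests on the assumed share of 10%. In T- or NK-like cells C1qb was at 32.5 CPM and 0 CPM, but all 29 UMIs were in 1 cell, and the ratio was 0.00 under 3 alternatives. Both pairs thus depended on a few cells.

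The other genes of the system were read from lists of 13 initiation, 2 alternative pathway, 7 terminal, 13 regulator and 10 receptor genes. In some compared class, 5, 1, 2, 8 and 8 of these reached 10 CPM. Of the 2 receptor genes with a mean of at least 10 CPM in epithelium-like cells, 1 was at least 2-fold higher and 1 lower. In fibroblast-, macrophage-, smooth muscle- and T- or NK-like cells none of the listed genes with a mean of at least 10 CPM over both libraries passed 2-fold. That limit leaves out low genes seen mainly in 1 library, of which C1rb and C1s2 in fibroblast-like cells are an example.

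C1rb and C1s2, the second mouse copies of the C1r and C1s protease genes, were all but unseen in the control-labelled library. In fibroblast-like cells C1rb had 1 UMI (0.104 CPM) in the control-labelled library and 179 UMIs in 139 cells (11.1 CPM) in the cKO-labelled library, a plain ratio of 106 (counting interval 18.8 to 4220). C1s2 had 0 UMIs and 165 UMIs in 148 cells (10.2 CPM), at least 32.7-fold higher with the control-labelled library set at 3 counts. Over all cells the counts were 1 and 192 UMIs for C1rb and 9 and 187 UMIs for C1s2. The difference was not that of a few cells, and no fibroblast-like cluster of the control-labelled library had more than 1 UMI of either gene. Both copies lie near C1s1 on chromosome 6, C1rb at chr6:124570294-124581171 and C1s2 at chr6:124624625-124636085, while C1ra at chr6:124512405-124523443 was seen in both libraries.

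Clu (clusterin, a secreted chaperone that blocks the terminal complex) was at 63.6 CPM (1202 UMIs) in epithelium-like cells of the control-labelled library and 1194 CPM (1608 UMIs) in the cKO-labelled library, a log2 ratio of 4.13. It was higher in both shared clusters, at 73.4 and 610 CPM in cluster 0 and at 71.0 and 1263 CPM in cluster 6. One cell held 436 of the UMIs, and the class level without it was 935 CPM. Cfi (factor I, a protease that cleaves C3b) stood on the other side, at 53.0 and 8.91 CPM, a log2 ratio of -2.06. Cd59a, an inhibitor of the terminal complex, was at 3.34 and 14.1 CPM (63 and 19 UMIs). Among receptors, Itgam (the alpha chain of complement receptor CR3) was at 44.4 and 6.68 CPM and C1qbp (a multifunctional protein first found as a C1q binder) at 52.1 and 158 CPM.

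C5ar1, the receptor for C5a, was at 499 and 494 CPM in macrophage- or monocyte-like cells. In dendritic-like cells the receptor gene Cd93 was at 4.15 and 14.9 CPM (7 and 29 UMIs) and Serping1 (the C1 inhibitor) at 2.37 and 9.77 CPM (4 and 19 UMIs). In T- or NK-like cells Serping1 was at 12.3 and 0.619 CPM (11 and 1 UMIs) and Itgam at 13.4 and 1.24 CPM (12 and 2 UMIs), counts too low for a comparison. In fibroblast-like cells Serping1 was at 312 and 276 CPM, and C1ra (a C1r protease) at 53.8 and 45.0 CPM. Of the 7 terminal genes, C6 had the highest level in a compared class, at 26.2 and 50.6 CPM in macrophage- or monocyte-like cells.

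The genes with the most similar levels were found by Pearson correlation of log2(CPM + 5) over the 12 points of 6 classes and 2 libraries, which share libraries and cells. For C1qa they were C1qc (0.996), Tfec and Adgre1, for C1qb Adgre1 (0.995), Fcgr3 and Pf4, and for C1qc Folr2 (0.996), C1qa and Aoah. For C3ar1 they were P2ry6 (0.997), Fcgr2b and F13a1. C1s1 was closest to Tnxb (0.989), Loxl1 and Col1a2. C2 was closest to Myo7a (0.951), C4b to Gas7 (0.963), C3 to Hk2 (0.945) and Cfb to Rnf180 (0.959). The 4 macrophage transcripts therefore had several near matches, and C3, whose level was split between cell classes, had the weakest.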

How the data were processed

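UMI counts per gene and barcode were deposited by the authors unfiltered and without normalization. The counting program was Cell Ranger, which the file headers give as version 4 and the submitters' processing notes as 6.1.1 with mm10; the annotation release is not given in the sources used here. Of the 32285 gene identifiers, 32235 (99.8%) occur in GENCODE vM21, which gave coordinates.

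Barcodes with 1000 or more UMIs, 500 or more genes and no more than 20% mitochondrial UMIs were kept as cells. The gene limit removed 378 barcodes from the control-labelled library and 184 from the cKO-labelled library, and the mitochondrial limit then removed 283 and 43. Both libraries were clustered together in scanpy 1.11.5 with 2000 variable genes, no complement gene among them, 30 components, 15 neighbours and Leiden resolution 1. A class name needed at least 3 markers seen in at least 25% of a cluster's cells and at 2 times the median cluster. Clusters 10 and 24 had too few markers. Cluster 18 (12 and 23 cells) was left out as deep with markers of another class, by a limit set after the data were seen.

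UMIs of all cells of a class were summed in each library and scaled to CPM. Ratios are of the cKO-labelled library over the control-labelled library with 5 CPM added, for genes with a mean of at least 10 CPM. Poisson, binomial and ratio intervals were exact (scipy 1.17.1). Only the ratio intervals were checked on simulated data, with counts drawn with Poisson error and no further spread between cells. The 9 members were always named. Other complement genes were named where they passed 2-fold, at most 3 a class and direction, and 3 genes of like pattern were taken for each member. The values of 1 listed complement regulator are not reported here. Members and lists were chosen with earlier results of these data known.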

Additional observations from a re-analysis of the deposited data

Results flagged for a closer look

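The C3 values of fibroblast-like and epithelium-like cells had opposite directions. The log2 ratio of the cKO-labelled library over the control-labelled library was 0.36 in fibroblast-like cells and -2.74 in epithelium-like cells, a difference of 3.10. With 1 library per group the difference was not tested. Free RNA, as read from droplets with 10 to 100 UMIs, had C3 at 694 CPM in the control-labelled library and 60.1 CPM in the cKO-labelled library. After its subtraction at an assumed 10% of each class total, the fibroblast ratio was 0.69 and the epithelial ratio -2.72.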

How the results depend on the processing

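The count of members at least 2-fold lower in a class was 7 of 22, and of those at least 2-fold higher 0 of 22. With no filter on low levels, 13 pairs were lower and 1 higher, of 53. With cells of at least 2000 UMIs, 3 of 17 were lower, and at Leiden resolution 2, 4 of 18. With free RNA subtracted at an assumed 10% of each class total, 4 of 18 were lower and 1 higher (C3 in dendritic-like cells, 2.14). That share exceeds all the C3 of smooth muscle- and T- or NK-like cells. With cells thinned to 1000 UMIs, 2 of 20 were higher (C1s1 in macrophage-like cells at 1.95 and in smooth muscle-like cells at 1.37, both near the level of 1 UMI) and 5 lower. The other alternatives (median of ratios scaling, a pseudocount of 1 CPM, at most 10% mitochondrial UMIs, Leiden resolution 0.5, clusters of 1 library left out, equal weight per cluster, highest doublet scores removed) gave 5 to 7 lower and 0 higher. Why the counts differ was not tested beyond the fewer cells and genes that some settings leave. Of the single values of members and classes, 49 moved by more than their counting interval and 287 did not, and none that was past 2-fold changed sign. Median of ratios scaling shifted the epithelial scale by 0.26 (log2, before the 5 CPM were added) and turned the split over all genes from 965 higher and 583 lower to 529 and 820; in dendritic-like cells 217 and 244 became 114 and 305. No paired analysis was possible because each group is 1 library, and for the same reason no replicate could be left out. In the 109 epithelium-like cells of the cKO-labelled library, low members such as C2 (4 UMIs) could not be compared.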
